A study of Mus musculus with 9 samples.

Results

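The 43 genes described here encode soluble hydrolases and membrane proteins of the mouse lysosome. The rule that lists their symbols uses no measured value, though the list was drawn up with earlier results of these data known, and each symbol was matched through its Ensembl gene ID. All 43 had a row among the 13708 genes of the table, and all 43 passed the filter on low values that left 13594 genes to be tested. By substrate, 15 act on glycans, 12 on lipids, 2 on proteins, 2 on nucleic acids and 2 on phosphate esters, 9 are membrane proteins, and 1, Grn (progranulin), is a luminal regulator.

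RNA was measured in fetal liver macrophages, sorted at E15.5 as CD45+ F4/80hi CD11blow cells. In 5 samples the genotype was Mrc1Cre Xpr1fl/fl, in which Cre made from the Mrc1 locus recombines a floxed Xpr1, the gene of the only known phosphate exporter of mammalian cells. The 4 control samples were Xpr1fl/fl, which carry the floxed alleles without Cre. They are called Cre samples 1 to 5 and control samples 1 to 4 below, by the numbers in their labels. Mrc1 encodes the mannose receptor CD206, which sinusoidal endothelial cells of the liver also express, so recombination was not limited to macrophages, and the gate took macrophages with high and with low Tim4 together. The labels do not say whether each sample was a separate embryo, so p-values measure the spread between these samples. Values are the authors' normalized counts, which were scaled between samples with DESeq2, and the depth of each sample is unknown here. In bulk RNA, fewer cells of a type and less RNA per cell cannot be told apart.

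The lysosome is the acidic compartment in which cells break down what they take up and what they deliver by autophagy. Its soluble enzymes remove one kind of bond at a time, so that a glycan or a sphingolipid needs a series of enzymes in a fixed order, and the loss of one step leaves a stored substrate, as in the mucopolysaccharidoses and sphingolipidoses. Its membrane proteins line the wall, carry products and ions out, or sort enzymes in. Fetal liver macrophages sit in the centre of erythroblastic islands and degrade the nuclei that maturing erythroblasts expel, which brings DNA, lipid and phosphate to this compartment.

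Xpr1 was at 58.65% of its control mean in the Cre samples (log2 fold change -0.77, SE 0.08, limma adjusted p = 4.13e-05), and Mrc1, the gene that carries the Cre, was at 30.67% (-1.72, SE 0.12, limma adjusted p = 5.37e-06). Across all genes, 5865 of 13594, or 43.1%, passed the threshold of 0.05, 21.5% higher and 21.6% lower. The column names of the table carry dates whose meaning is not stated, and the earliest date holds Cre sample 5 with control samples 1 to 3, the latest holds Cre samples 1 to 4, and control sample 4 has a date of its own. Only the earliest date holds both genotypes. Every log2 fold change given below with a date term is therefore that of Cre sample 5 against control samples 1 to 3. With a date term in the fit, 8.78% of genes passed, 4.24% higher and 4.54% lower. All 10 macrophage markers were measured, and together they held 0.954% to 1.04% of all normalized counts in Cre samples and 1.10% to 1.39% in controls. Of these, 4 were lower (Marco, C1qa, C1qc and Aif1), Marco with means of 21211.7 in Cre samples and 69442.9 in controls. The others did not pass, with log2 fold changes of 0.02 (Adgre1), 0.14 (Csf1r), 0.16 (Mertk), -0.11 (C1qb), 0.03 (Fcgr1) and 0.13 (Cd14). All 11 erythroid markers tested fell (0.372% to 1.13% of counts against 1.54% to 2.36%), as did 7 of 9 endothelial markers (0.0225% to 0.0302% against 0.0386% to 0.0517%) and 7 of 7 hepatocyte markers (0.120% to 0.155% against 0.210% to 0.343%). Granulocyte markers held 0.0177% to 0.0648% against 0.0313% to 0.195%, megakaryocyte markers 0.00254% to 0.00365% against 0.00790% to 0.00911%, and monocyte markers 0.0357% to 0.0479% against 0.0262% to 0.0373%. No marker measured was at 0 in all samples, and their part in the lysosomal results was not tested.

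Many lysosomal genes hold the E-box CACGTG near their start, as the core of the CLEAR element that TFEB, TFE3 and MITF bind. In the 300 bases from 250 before to 50 after the start of each gene's canonical transcript (GENCODE M39 on GRCm39), 10 of the 43 genes held CACGTG, which reads the same on both strands, or 23.26%, against 1294 of 13693 promoters in all, or 9.45%. The longer run GTCACGTG, searched on both strands and always overlapping CACGTG, was in 9 of the 43 genes (20.93%) and in 3.505% of all promoters, and the full palindrome, GTCACGTG followed by AC, was in Cln3 alone of the 43 genes and in 0.4747% of all promoters. Sites of 5 of the 10 genes are printed, because Gla, Cln3, Sgsh and Naglu are those whose RNA passed the test and Lamp1 has the most copies. Each stretch runs 5′ to 3′ on the gene's own strand with the E-box in capitals.
Cln3, chr7:126182542-126182567, minus strand: aaccctcaagCACGTGatggaaggct
Cln3, chr7:126182514-126182539, minus strand: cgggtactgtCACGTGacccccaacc
Gla, chrX:133501966-133501991, minus strand: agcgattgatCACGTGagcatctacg
Gla, chrX:133501933-133501958, minus strand: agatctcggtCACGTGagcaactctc
Sgsh, chr11:119246350-119246375, minus strand: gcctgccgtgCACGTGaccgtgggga
Naglu, chr11:100960837-100960862, plus strand: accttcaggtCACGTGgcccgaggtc
Lamp1, chr8:13209090-13209115, plus strand: ggcaagatatCACGTGgtccagcgcc
Lamp1, chr8:13209106-13209131, plus strand: gtccagcgccCACGTGatgccgactg
Lamp1, chr8:13209123-13209148, plus strand: tgccgactggCACGTGaccacatcac
Lamp1, chr8:13209136-13209161, plus strand: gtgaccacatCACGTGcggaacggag
The other 5 genes with the E-box were Gaa, Glb1, Arsa, Plbd2 and Mcoln1. Of the 12 lysosomal genes that rose 2 held it, of the 10 that fell 2, and of the other 21 genes 6. A match is a run of letters and not a site shown to be bound.

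Of the 43 lysosomal genes, 12 were higher and 10 lower in Cre samples, and 21 did not pass, in limma on log2(normalized count + 1) with Benjamini-Hochberg adjustment over all 13594 genes. That is 27.91% higher and 23.26% lower, against 21.5% and 21.6% of all genes. The groups did not overlap for 9 genes that were higher and 7 that were lower, or 16 of 43, against 34.1% of all genes (16.6% higher and 17.5% lower). The median log2 fold change of the 43 was -0.04 and that of all genes was 0.005. The median size of change was 0.17 on the log2 scale against 0.25 over all genes, and 9.302% of the lysosomal genes and 26.48% of all genes moved by more than 0.5, while Cd63 alone of the 43 moved by more than 1. The lysosomal genes are abundant, however, with 39 of the 43 at a mean of at least 1000 normalized counts, and among the 5506 genes at that level the median size was 0.18 and 11.3% moved by more than 0.5. Of those 5506 genes 35.4% were higher and 14.2% lower. The counts depend on the scaling: with the values rescaled to the 75th percentile of each sample 8 were higher and 16 lower (1999 and 3706 of all genes), and with quantile normalization 8 were higher and 13 lower (2971 and 2560 of all genes). With a date term, 3 were higher (Gla, Cln3, Pld4) and 4 lower (Cd63, Sgsh, Fuca1, Scarb2). Of the 22 genes that passed without it, 20 had Cre sample 5 outside the range of the 3 controls of its own date on the side of the change, the exceptions being Idua and Manba. The share over all genes that passed was 89.3%, and Cre sample 5 is itself part of the mean behind each call.

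**Figure D1:**
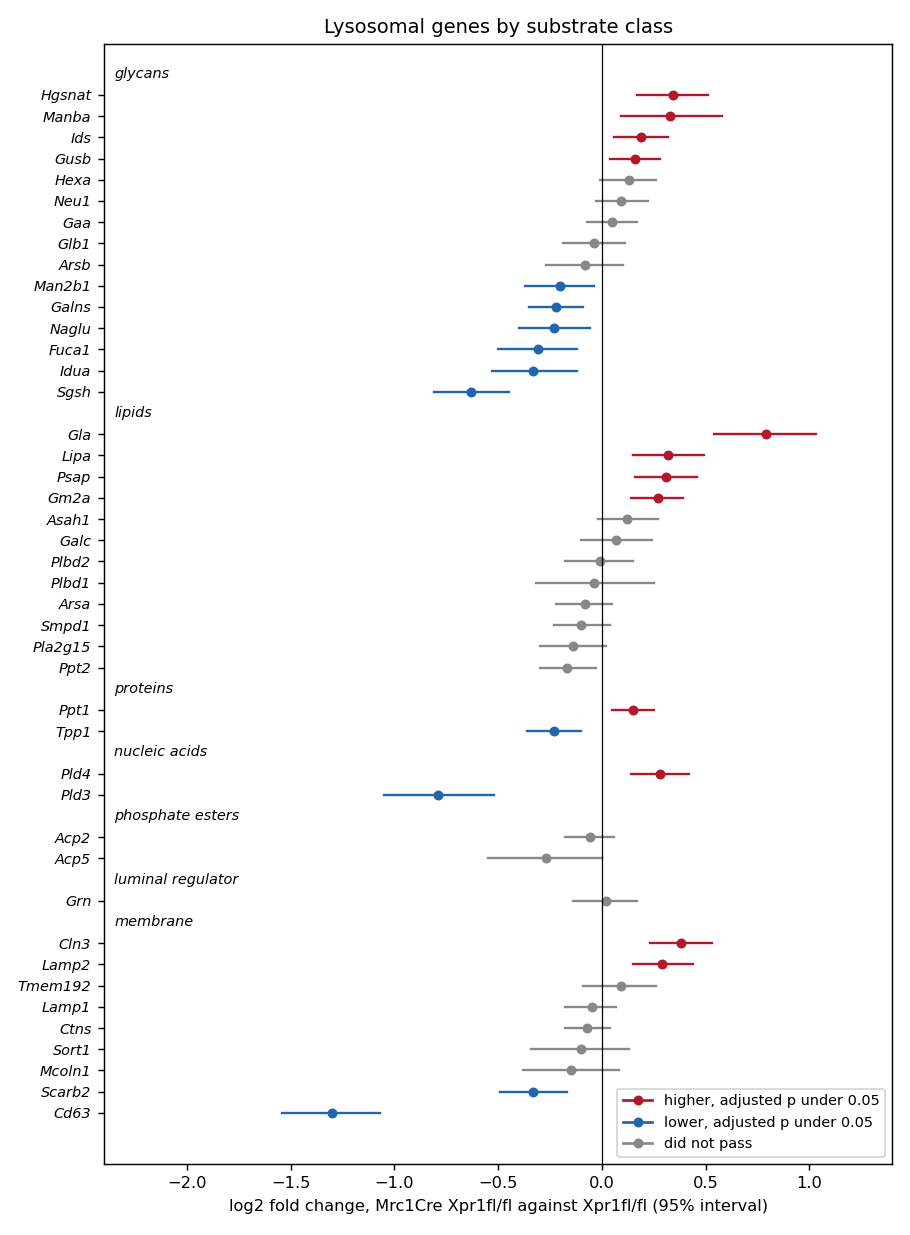
Log2 fold change of each of the 43 lysosomal genes, Mrc1Cre Xpr1fl/fl (n = 5) against Xpr1fl/fl (n = 4), with its 95% interval from limma, ordered by size within each class. Genes that rose and fell stand side by side among the glycan enzymes, and Cd63 at -1.30 is the farthest from 0. No lipid gene passed as lower, against 21.6% of all genes and 14.2% of genes at a mean of at least 1000 normalized counts.

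**Figure D2:**
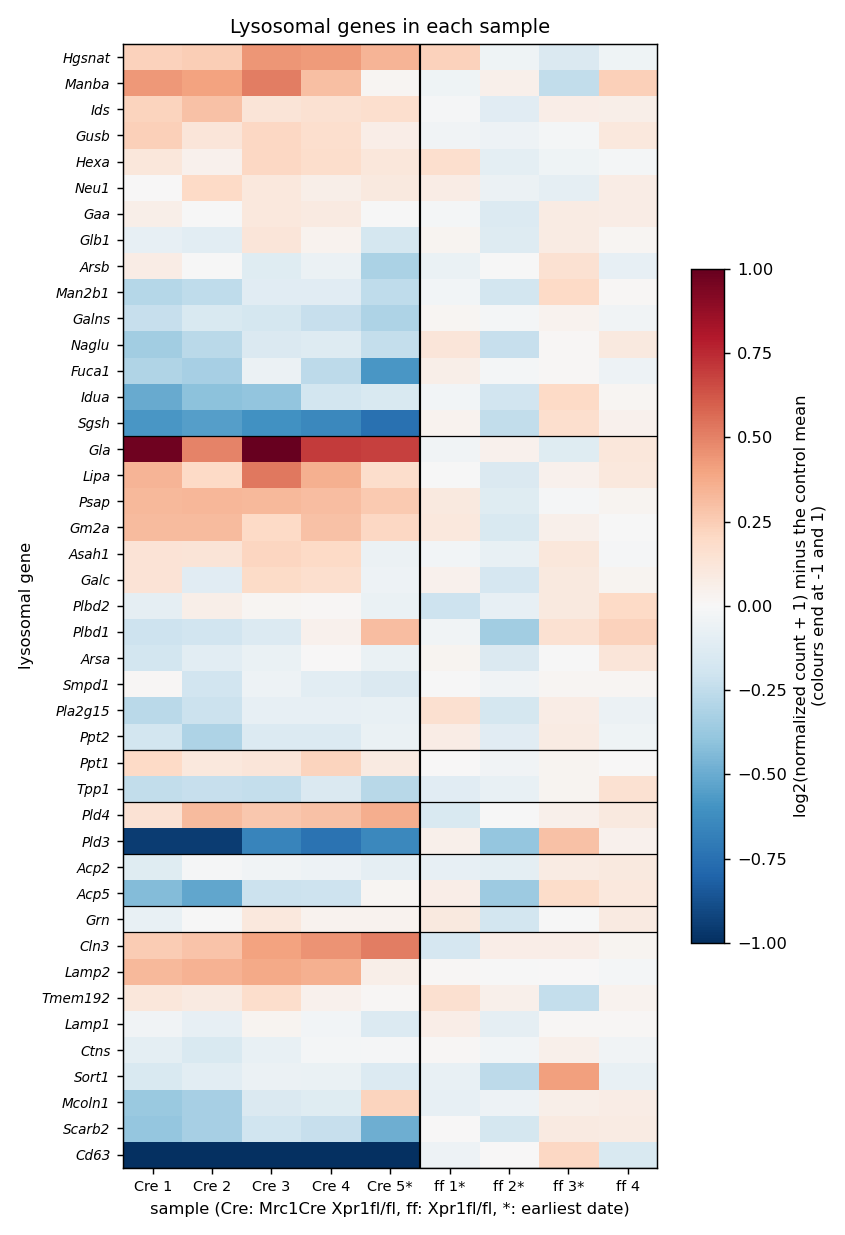
Log2(normalized count + 1) minus the control mean for each lysosomal gene and sample, with Cre samples 1 to 5 on the left, control samples 1 to 4 on the right and an asterisk on the earliest date. Sgsh, Pld3 and Cd63 are low and Gla high in all 5 Cre samples, and Cre sample 5 differs in shade from the other 4 in Manba, Lamp2 and Mcoln1.

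Among the 15 glycan enzymes 4 rose (26.67%, against 21.5% of all genes), 6 fell (40.0%, against 21.6%) and 5 did not pass. At a mean of at least 1000 normalized counts, 35.4% of genes were higher and 14.2% lower. With the 75th percentile scaling 1 of the 15 rose and 6 fell. Heparan sulfate, a chain of alternating uronic acid and glucosamine with sulfate groups, is taken apart by 6 of them, and these divided evenly: Ids, Hgsnat and Gusb were higher and Idua, Sgsh and Naglu lower. Sgsh (ENSMUSG00000005043, chr11:119234251-119246374, minus strand), the sulfamidase that removes sulfate from the glucosamine nitrogen, moved most of the 6. It measured 854, 872, 838, 817 and 763 normalized counts in Cre samples 1 to 5 and 1313, 1079, 1434 and 1316 in control samples 1 to 4. Every Cre sample lay below every control, the lowest control being sample 2. The means were 829 ± 42 and 1285 ± 149 (SD, n = 5 and 4), 64.47% of control, a log2 fold change of -0.63 (SE 0.08, limma adjusted p = 0.000165, and 0.0153 with a date term).

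Hgsnat (ENSMUSG00000037260, chr8:26431351-26466798, minus strand) is the membrane acetyltransferase that acts on the amine Sgsh uncovers, the next step of the same chain. Its RNA was 12092, 12249, 14025, 13853 and 13042 normalized counts in the Cre samples and 12093, 10026, 9319 and 10011 in the controls. Control sample 1 lay level with the lowest Cre sample and the other 3 controls lay below all of them. Hgsnat was at 126.0% of control (log2 fold change 0.34, SE 0.08, limma adjusted p = 0.00505), and at 0.32 with an adjusted p of 0.181 with a date term. Idua (chr5:108808197-108834523, plus strand), the alpha-L-iduronidase, measured 997, 1062, 1071, 1244 and 1269.7 normalized counts in Cre samples and 1385, 1237, 1618 and 1433 in controls. Cre samples 4 and 5 were above control sample 2, so the groups overlapped. It stood at 79.58% of control (-0.33, SE 0.09, limma adjusted p = 0.0147), and with a date term at -0.15 (adjusted p = 0.601).

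The other 3 heparan sulfate enzymes moved less. Ids, the X-linked iduronate 2-sulfatase that precedes Idua, was at 114.3% of control (log2 fold change 0.19, SE 0.06, limma adjusted p = 0.0221), with 1227 to 1373 normalized counts in Cre samples above 1034 to 1171 in controls. Gusb, the beta-glucuronidase, was at 111.8% (0.16, SE 0.05, limma adjusted p = 0.0296), and its groups overlapped through control sample 4. Naglu, the N-acetylglucosaminidase, was at 85.26% (-0.23, SE 0.08, limma adjusted p = 0.0343), and its groups overlapped through control sample 2. Single samples decided these 3 calls. Without Cre sample 2 or without control sample 2 the adjusted p of Ids was 0.0542 to 0.0666. That of Gusb was 0.0548 to 0.0745 without Cre sample 1, 3 or 4 or control sample 1, 2 or 3, and that of Naglu 0.0686 to 0.0952 without Cre sample 1 or 2 or control sample 1, 3 or 4. With the 75th percentile scaling 1 of the 6 enzymes rose and 3 fell, and with a date term Sgsh alone passed.

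**Figure D3:**
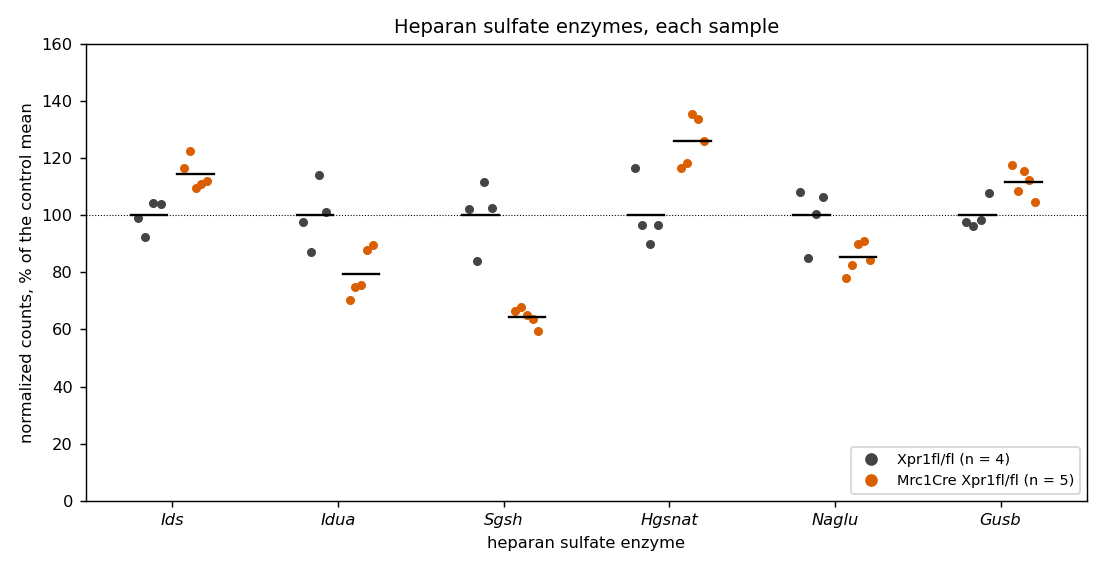
Normalized counts in each sample as a percentage of the control mean, for the 6 heparan sulfate enzymes, where points are samples and bars are group means. Sgsh (64.47% of control) and Hgsnat (126.0%), adjoining steps, lie on opposite sides of 100%.

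The enzymes that trim glycoproteins and glycogen moved in both directions. Manba (chr3:135191125-135278908, plus strand), the beta-mannosidase, measured 2079, 2031, 2189.9, 1894 and 1560.4 normalized counts in the Cre samples against 1492, 1589, 1298 and 1816 in the controls. Cre sample 5 fell among the controls of its date and the other 4 lay above every control. It was at 126.0% of control (log2 fold change 0.33, SE 0.11, limma adjusted p = 0.0301), and its log2 fold change was 0.10 with a date term. Its limma adjusted p was 0.0614 to 0.0954 without Cre sample 1, 2 or 3 or control sample 1 or 3. With the 75th percentile scaling that adjusted p was 0.073 and with quantile normalization 0.0649. Man2b1, the alpha-mannosidase, was on the lower side at 86.53% (-0.20, SE 0.08, limma adjusted p = 0.0478), which rose to between 0.0501 and 0.145 when any one of 7 samples was left out, the exceptions being Cre sample 4 and control sample 2. With a date term the log2 fold change of Man2b1 was -0.25. Fuca1 (chr4:135648004-135668235), the alpha-fucosidase, had 1803, 1767, 2139.8, 1854 and 1491 normalized counts in Cre samples and 2320.3, 2191, 2246 and 2153 in controls. Each Cre sample lay below each control, Cre sample 3 by the smallest margin. It was at 81.29% of control (-0.31, SE 0.09, limma adjusted p = 0.0137, and 0.0131 with a date term). Galns, which removes sulfate from keratan and chondroitin sulfate, was at 85.85% (-0.22, SE 0.06, limma adjusted p = 0.0109) with no overlap, 624.5 to 693 normalized counts against 752 to 793. With a date term its adjusted p was 0.0853.

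The 5 glycan enzymes that did not pass had narrow intervals. Gaa, the acid glucosidase of glycogen, differed by 0.05 on the log2 scale (95% interval -0.07 to 0.17), Glb1, the beta-galactosidase, by -0.04 (-0.19 to 0.11), Neu1, the sialidase, by 0.09 (-0.03 to 0.22) and Arsb, the dermatan sulfatase, by -0.08 (-0.27 to 0.10). The signs of Gaa and Neu1 turned under other scalings. Glb1 and Neu1 work in a complex held together by Ctsa, the protective protein, which was at 95.27% of control (-0.07, 95% interval -0.20 to 0.06, limma adjusted p = 0.383). Hexa encodes the alpha subunit of beta-hexosaminidase and was at 109.2% of control (0.13, 95% interval -0.01 to 0.26, limma adjusted p = 0.11, and 0.0179 without control sample 1).

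Among the 12 lipid genes 4 rose (33.33%) and 8 did not pass, and none was lower by limma at an adjusted p under 0.05 (1, Ppt2, at an unadjusted p under 0.05). Of all genes 21.5% were higher and 21.6% lower, and of genes at a mean of at least 1000 normalized counts 35.4% and 14.2%. The 4 lipid genes that rose were Gla, Lipa, Psap and Gm2a, and 3 of them belong to the 7 genes of sphingolipid breakdown. With the 75th percentile scaling 4 were higher and 3 lower, and with quantile normalization 4 higher and 2 lower. Gla (ENSMUSG00000031266, chrX:133488891-133501904, minus strand), the alpha-galactosidase that removes the last sugar of globotriaosylceramide, rose more than any other of the 43. Its 5 Cre samples had 1596, 1148, 1732, 1322 and 1309 normalized counts and the controls 794, 839.7, 749 and 881. The Cre samples were spread more widely than the controls and all lay above them. The means were 1421 ± 237 and 816 ± 57 (SD, n = 5 and 4), 174.2% of control, with a log2 fold change of 0.79 (SE 0.11, 95% interval 0.54 to 1.03, limma adjusted p = 0.000259, and 0.0489 with a date term).

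Psap (ENSMUSG00000004207, chr10:60113431-60138380, plus strand) encodes prosaposin, which is cut into the 4 saposins that lift sphingolipids to their enzymes. It had 188684, 189119.7, 188891, 186596 and 180095 normalized counts in Cre samples and 161193, 138651, 149397 and 153659.9 in controls. Cre sample 5 was the lowest of its group and was still above the highest control. At 123.9% of control its log2 fold change was 0.31 (SE 0.07, limma adjusted p = 0.00407, and 0.177 with a date term). Psap is so abundant that the separation of the groups in the sum of the 43 genes depended on it. The 43 genes held 1.91% to 2.01% of all normalized counts in Cre samples and 1.74% to 1.89% in controls, and without Psap 1.25% to 1.35% and 1.22% to 1.35%, which overlapped.

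Gm2a (chr11:54988883-55003855, plus strand), the activator that presents GM2 ganglioside for cleavage, was at 120.1% of control, with 9799.8 to 10644 normalized counts in Cre samples and 7692 to 9151 in controls (log2 fold change 0.27, SE 0.06, limma adjusted p = 0.00367, and 0.242 with a date term). Lipa (chr19:34469712-34522163, minus strand), the acid lipase of cholesteryl esters and triglycerides, measured 22783, 20667, 25895, 22997 and 20304 normalized counts in Cre samples and 17939.6, 16271, 18558 and 19360.2 in controls. All Cre samples were above all controls, though Cre samples 2 and 5 by little. It was at 124.9% of control (0.32, SE 0.08, limma adjusted p = 0.00702, and 0.312 with a date term).

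The other sphingolipid enzymes had small differences. Asah1, the acid ceramidase, differed by 0.12 on the log2 scale (95% interval -0.02 to 0.27), and without Cre sample 5 by 0.17 with a limma adjusted p of 0.0228. Galc, the galactosylceramidase, differed by 0.07 (-0.10 to 0.24), Arsa, the sulfatide sulfatase, by -0.08 (-0.22 to 0.05), and Smpd1, the acid sphingomyelinase, by -0.10 (-0.23 to 0.04). Pla2g15, the lysosomal phospholipase A2, differed by -0.14 (-0.30 to 0.02), and without control sample 2 by -0.20 with a limma adjusted p of 0.037.

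Plbd1 and Plbd2, the phospholipase B-like proteins, stayed within their spread. Plbd1 (chr6:136589067-136639349, minus strand) ran from 7725, 7810.2, 8144 and 9196 normalized counts in Cre samples 1 to 4 to 11067 in Cre sample 5, with 8733, 7011, 9909 and 10479 in the controls. Both groups covered much the same range, and their means were 8788 ± 1402 and 9033 ± 1531 (SD, n = 5 and 4), with a difference of -0.04 (95% interval -0.32 to 0.25, limma adjusted p = 0.842). Plbd2 (chr5:120621347-120641694, minus strand) had 3312, 3669, 3571, 3545 and 3360.2 in Cre samples and 3049, 3324, 3764 and 4038 in controls, a difference of -0.01 (-0.18 to 0.15, limma adjusted p = 0.899). The Plbd1 to Plbd2 ratio within a sample did not differ between genotypes (log2 difference -0.02, exact two-sided permutation p = 0.921).

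The pair of palmitoyl-protein thioesterases, which cut fatty acyl thioesters, stood on opposite sides of control. Ppt1 (chr4:122730010-122754948, plus strand), the enzyme that frees palmitate from proteins, had 3099, 2892, 2932, 3145 and 2876 normalized counts in Cre samples and 2709, 2635, 2739.7 and 2699 in controls, with no overlap. It was at 110.9% of control (log2 fold change 0.15, SE 0.05, limma adjusted p = 0.023), and its adjusted p was 0.0518 to 0.0573 without Cre sample 1 or 4 or control sample 2 and 0.412 with quantile normalization. With the 75th percentile scaling its limma adjusted p was 0.247, and with a date term its log2 fold change was 0.09. Ppt2 (chr17:34835635-34864382, minus strand), counted here with the lipid genes because it prefers other acyl thioesters, had 2328, 2136, 2413, 2409.6 and 2535 in Cre samples and 2794, 2447, 2798 and 2574 in controls. It overlapped through Cre sample 5 and control sample 2 and missed the threshold (-0.17, 95% interval -0.30 to -0.03, limma adjusted p = 0.0512, and 0.0289 to 0.0296 without either of these samples). The Ppt1 to Ppt2 ratio was 1.268 ± 0.0913 in Cre samples and 1.019 ± 0.0525 in controls (SD, n = 5 and 4), a log2 difference of 0.31. Its exact two-sided permutation p was 0.0159, the smallest that 126 splits allow, and 0.0265 after Benjamini-Hochberg adjustment over the 5 ratios tested. These splits take no account of the dates, and within the earliest date, where 1 Cre sample meets 3 controls, no test was made: the ratio was 1.135 in Cre sample 5 and 0.970, 1.077 and 0.979 in control samples 1 to 3. Ppt2 shares its strand with overlapping gene models (Gm20460, Gm20461 and Gm65331), so its reads are less certain than those of Ppt1. Tpp1 (chr7:105394018-105401481, minus strand), a tripeptidyl peptidase and the other enzyme that acts on proteins, fell: 11531, 11647, 11566, 12382 and 11249 normalized counts in Cre samples were all below 12664, 12970.0, 13956 and 15230.0 in controls. It was at 85.19% (-0.23, SE 0.06, limma adjusted p = 0.00991, and 0.119 with a date term).

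Pld3 and Pld4 are exonucleases of single-stranded DNA and RNA in the endolysosome, with names taken from the phospholipase D family, and they moved in opposite directions. Pld3 (ENSMUSG00000003363, chr7:27231425-27252665, minus strand) had 6063, 6053, 7391, 7016 and 7465 normalized counts in Cre samples and 12073, 8927, 14327 and 12053 in controls. The controls were widely spread and the lowest, sample 2, was still above every Cre sample. At 57.39% of control its log2 fold change was -0.79 (SE 0.12, 95% interval -1.05 to -0.52, limma adjusted p = 0.000431), and with a date term -0.63 (adjusted p = 0.0959).

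Pld4 (ENSMUSG00000052160, chr12:112727087-112735428, plus strand) had 13639, 15305, 14888, 15093 and 15849 normalized counts in Cre samples and 11066, 12321, 12792 and 13219 in controls. The groups came close, at Cre sample 1 and control sample 4, and did not overlap. It was at 121.1% of control (log2 fold change 0.28, SE 0.06, limma adjusted p = 0.0047), 0.0392 with a date term and 0.0713 with quantile normalization. The Pld4 to Pld3 ratio was 2.249, 2.529, 2.014, 2.151 and 2.123 in Cre samples and 0.917, 1.38, 0.893 and 1.097 in controls. Every Cre sample had more than any control, a log2 difference of 1.06 (exact two-sided permutation p = 0.0159, the smallest possible, 0.0265 adjusted over the 5 ratios, dates not taken into account). Because Pld4 was higher and Pld3 lower without overlap, the ratio had to separate the groups. Its p-value was fixed by those results and adds nothing to them. Dnase2a, the acid nuclease of double-stranded DNA and not one of the 43, was at 91.04% of control (-0.13, 95% interval -0.28 to 0.02, limma adjusted p = 0.146), and it was lower past the threshold with the 75th percentile scaling (-0.21, adjusted p = 0.0308) and with quantile normalization (-0.23, adjusted p = 0.0196).

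Neither acid phosphatase passed in limma, and neither had an unadjusted p under 0.05, but with the 75th percentile scaling both were lower past the threshold. Acp2 (chr2:91033138-91044443, plus strand), the lysosomal acid phosphatase, measured 10529, 11327, 11136, 11019 and 10745 normalized counts in Cre samples and 10786, 10685, 12133 and 12227 in controls, which overlapped (-0.06, 95% interval -0.18 to 0.06, limma adjusted p = 0.382). Acp5 (chr9:22038023-22049355, minus strand), the tartrate-resistant acid phosphatase of macrophages and osteoclasts, measured 6572, 6190.3, 7669, 7702 and 8992 in Cre samples and 9336, 6924, 10104 and 9579.7 in controls. Cre samples 3, 4 and 5 lay inside the range of the controls, and control sample 2 inside that of the Cre samples. The difference was -0.27 (95% interval -0.55 to 0.00, limma adjusted p = 0.0991), and without Cre sample 5 or control sample 2 it was -0.34 or -0.39 with adjusted p-values of 0.0329 and 0.0147. With a date term it was 0.05 (adjusted p = 0.892). The Acp2 to Acp5 ratio was 1.502 ± 0.234 and 1.294 ± 0.174 (SD, n = 5 and 4; exact two-sided permutation p = 0.206, 0.258 adjusted).

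**Figure D4:**
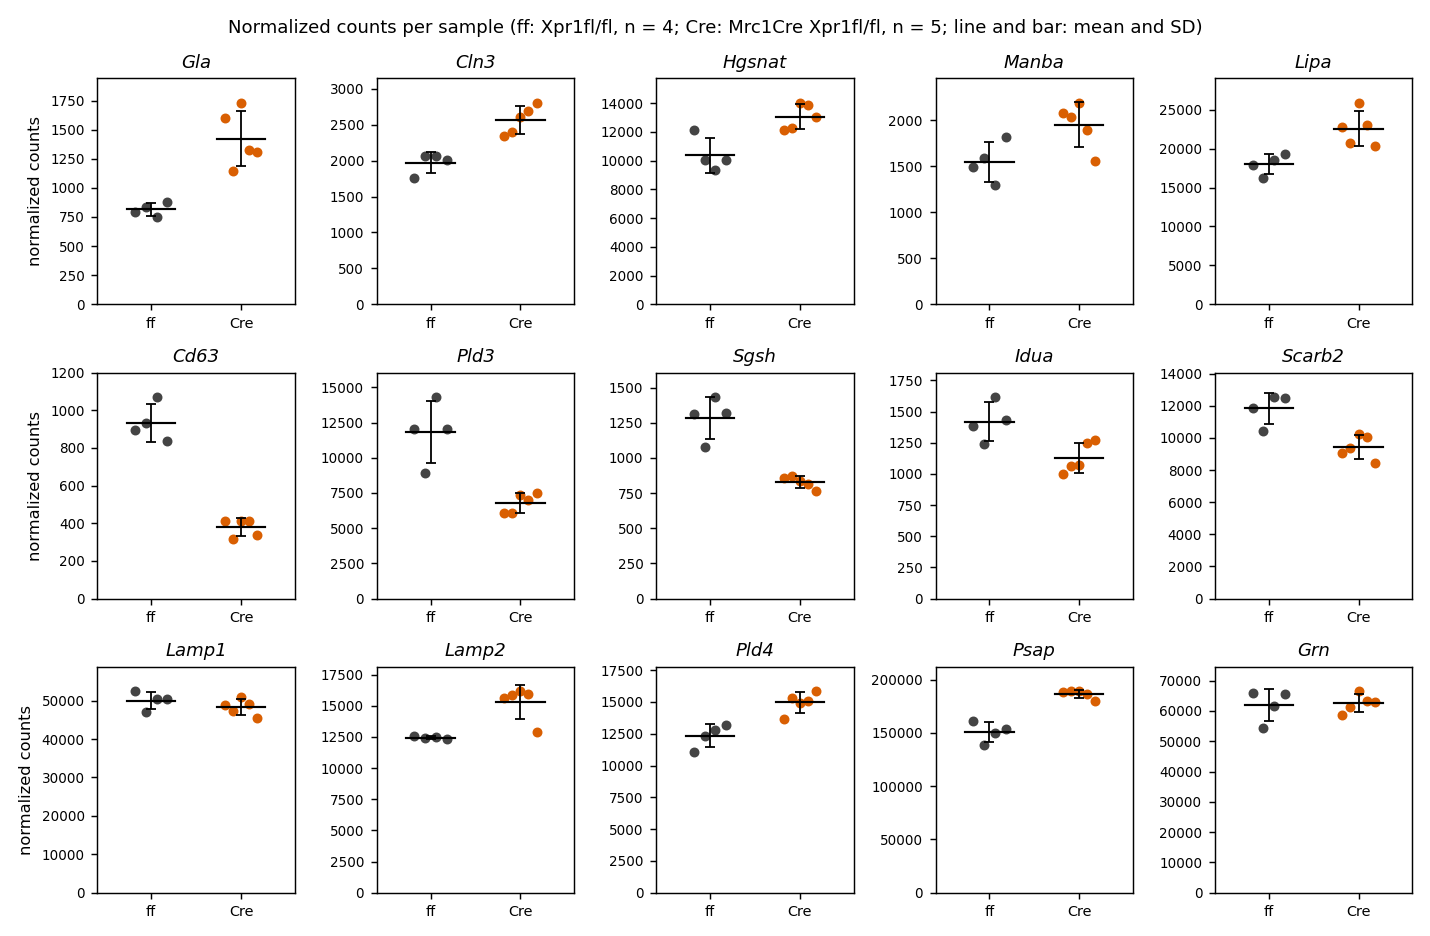
Normalized counts in each sample for the 5 lysosomal genes with the largest rise (top), the 5 with the largest fall (middle) and Lamp1, Lamp2, Pld4, Psap and Grn (bottom), with group means and SDs. The groups overlap in Hgsnat, Manba, Idua, Lamp1 and Grn and are apart in the other panels.

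Progranulin, sortilin and prosaposin form a delivery route, in which sortilin (Sort1) binds progranulin (Grn) and progranulin travels with prosaposin. Of the 3, Psap alone passed. Grn (chr11:102321141-102327874, plus strand) had 58672, 61423, 66530.2, 63370.5 and 63077 normalized counts in Cre samples and 65980.4, 54412, 61603 and 65618 in controls. The Cre samples lay almost wholly within the range of the controls, with a difference of 0.02 (95% interval -0.14 to 0.17, limma adjusted p = 0.846). Sort1 (chr3:108191285-108268842, plus strand) had 2656, 2741, 2835, 2812 and 2679 in Cre samples and 2797, 2465, 3927 and 2798 in controls. Control sample 3 stood far above the rest, and the difference was -0.10 (95% interval -0.34 to 0.13, limma adjusted p = 0.461) with it and 0.03 without it.

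Among the 9 membrane proteins 2 rose (Cln3, Lamp2), 2 fell (Cd63, Scarb2) and 5 did not pass. That is 22.22% each way, against 21.5% higher and 21.6% lower of all genes. For genes at a mean of at least 1000 normalized counts the shares were 35.4% and 14.2%. Cd63 (ENSMUSG00000025351, chr10:128731528-128748709, plus strand), a tetraspanin of late endosomes, lysosomes and exosomes, changed most of the 43 genes. It had 414, 318, 410.3, 413 and 337 normalized counts in Cre samples and 896, 930.5, 1072 and 835 in controls. The highest Cre sample was well below the lowest control. Means of 378 ± 47 and 933 ± 100.3 (SD, n = 5 and 4) put it at 40.56% of control, a log2 fold change of -1.30 (SE 0.11, 95% interval -1.54 to -1.07, limma adjusted p = 1.26e-05, and 0.00178 with a date term). Scarb2 (chr5:92589169-92654692, minus strand), also called LIMP-2, is a membrane glycoprotein and sorting receptor of the lysosome. It had 9047, 9375, 10258, 10071 and 8412 normalized counts in Cre samples and 11854, 10456, 12550.5 and 12466 in controls. Control sample 2 was the closest to the Cre samples and still above them. Scarb2 was at 79.73% of control (-0.33, SE 0.07, limma adjusted p = 0.0043, and 0.0331 with a date term).

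Cln3 (ENSMUSG00000030720, chr7:126170379-126185012, minus strand), the membrane protein lost in juvenile neuronal ceroid lipofuscinosis, rose. It had 2348, 2393, 2601, 2694 and 2806 normalized counts in Cre samples and 1756, 2062, 2065 and 2010.2 in controls, and the groups were apart. At 130.2% of control its log2 fold change was 0.38 (SE 0.07, 95% interval 0.23 to 0.53, limma adjusted p = 0.00146, and 0.0267 with a date term). Its promoter holds the palindrome printed above, and a microRNA gene (Mir7059) lies within it on the same strand.

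Lamp1 and Lamp2 encode the most abundant glycoproteins of the lysosomal wall, and of the pair Lamp2 alone passed. Lamp1 (chr8:13209121-13227360, plus strand) had 48726, 47254, 50893, 49064 and 45450.5 normalized counts in Cre samples and 52467, 46960.5, 50296 and 50346 in controls, which overlapped (96.52% of control, -0.05, 95% interval -0.18 to 0.07, limma adjusted p = 0.497). Lamp2 (ENSMUSG00000016534, chrX:37488520-37545340, minus strand) had 15597, 15843, 16182, 15943 and 12939 in Cre samples and 12575, 12407, 12504 and 12309 in controls. Cre sample 5 was just above the controls, 3 of which share its date, while the other 4 Cre samples were far above. Lamp2 was at 122.9% of control (0.29, SE 0.07, limma adjusted p = 0.00444), and with a date term its log2 fold change was 0.05 (adjusted p = 0.694). The Lamp2 to Lamp1 ratio was 0.3166 ± 0.0191 in Cre samples and 0.2492 ± 0.0106 in controls (SD, n = 5 and 4), with every Cre sample above every control (log2 difference 0.34, exact two-sided permutation p = 0.0159, the smallest possible, 0.0265 adjusted over the 5 ratios, dates not taken into account). It was 0.2847 in Cre sample 5 and 0.2397, 0.2642 and 0.2486 in the controls of that date.

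Mcoln1, the calcium channel TRPML1, had 1225, 1262, 1431 and 1460.1 normalized counts in Cre samples 1 to 4, all below the 1498 to 1665 of the controls, and 1846 in Cre sample 5, above them all. Its difference was -0.15 over all samples (95% interval -0.38 to 0.08, limma adjusted p = 0.278), -0.24 without Cre sample 5 (adjusted p = 0.0194) and 0.24 with a date term (adjusted p = 0.231). Ctns, the cystine exporter, differed by -0.07 (95% interval -0.18 to 0.04) and Tmem192, a structural protein of the wall, by 0.09 (-0.09 to 0.26).

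Of the 43 genes 3 are X-linked (Gla, Lamp2 and Ids), and all 3 were higher with no overlap, against 18.2% higher and 13.1% higher with no overlap among the 451 X-linked genes tested. The Y-linked gene Ddx3y differed among samples of both groups, so its log2 value was also used as a covariate. The 3 log2 fold changes were then 0.80, 0.30 and 0.18, with limma adjusted p-values of 0.000438, 0.00512 and 0.0246, and 12 of the 43 were higher and 8 lower. Man2b1 (limma adjusted p = 0.0626) and Naglu (limma adjusted p = 0.0512) lost their calls in that fit.

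Levels can be compared between genes after division by the length of the canonical transcript. In controls Psap led with a mean of 56860 normalized counts per kb (52300 to 60800), followed by Grn at 26450, Lamp1 at 19450, Hexa at 8815 and Lamp2 at 7001, and these 5 kept this order in Cre samples. The ranges over control samples of Psap (52300 to 60800), Grn (23250 to 28200), Lamp1 (18270 to 20410), Hexa (8212 to 9862) and Lamp2 (6923 to 7073) did not overlap. Among the genes that changed, Pld3 went from rank 9 of 43 to rank 15, Cd63 from 31 to 39, and Gla from 42 to 32. The lowest in controls was Ids at 224.2 normalized counts per kb and the lowest in Cre samples was Sgsh at 189.5. These levels take 1 transcript per gene.

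**Figure D5:**
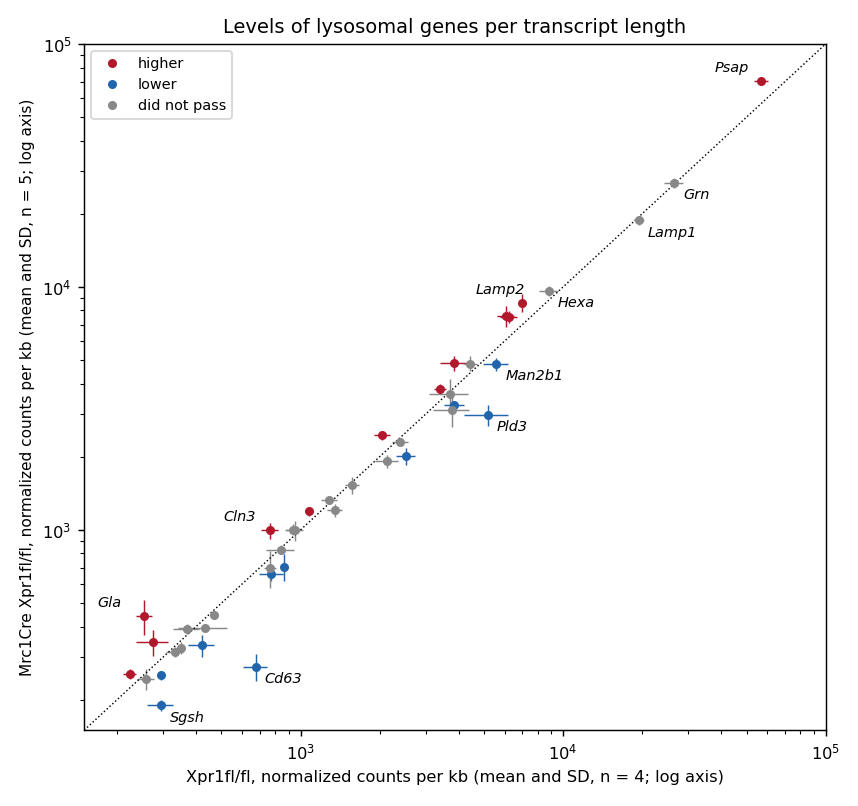
Mean normalized counts per kb of the canonical transcript in Xpr1fl/fl (horizontal) and Mrc1Cre Xpr1fl/fl (vertical), both on log axes, with SDs as bars and equal levels as a dotted line. Most of the 43 lysosomal genes lie close to the line over the whole range from Ids to Psap, and Cd63, Pld3, Sgsh and Gla lie farthest from it.

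A list of 63 further lysosomal genes, all tested, held 15 that were higher and 16 that were lower, 23.81% and 25.4% of the list against 21.5% and 21.6% of all genes, with a median log2 fold change of -0.01. With a date term 8 were higher and 4 lower. Of its 23 hydrolases and activators 3 rose (13.04%), among them Hyal1 and Scpep1, and 10 fell (43.48%), among them Dpp7, Smpdl3a and the RNases Rnaset2a and Rnaset2b. Of its 25 membrane proteins 8 rose (32.0%), among them the cholesterol exporter Npc1, the chloride exchanger Clcn7 and the metal transporter Slc11a1, and 4, or 16.0%, fell (Tpcn1, Laptm4a, Laptm4b, Abcb9). Of its 15 genes for delivery and gene control 4 rose (26.67%) and 2 fell (13.33%). Gnptab and Gnptg encode subunits of the transferase that makes the mannose 6-phosphate tag by which soluble enzymes such as Sgsh, Gla and Hexa are sorted, and both genes were chosen after their values were seen. Gnptab was at 165.1% of control (log2 fold change 0.72, SE 0.08, limma adjusted p = 8.36e-05) and Gnptg at 77.69% (-0.36, SE 0.06, limma adjusted p = 0.001). With a date term Gnptab kept its call (0.61, adjusted p = 0.0164) and Gnptg lost it (-0.28, adjusted p = 0.148). Of the factors that bind the CLEAR element, X-linked Tfe3 was at 119.8% of control (0.26, SE 0.05, limma adjusted p = 0.00129, and 0.0638 with a date term). Tfeb differed by 0.02 (95% interval -0.16 to 0.19, limma adjusted p = 0.877) and Mitf by 0.13 (-0.06 to 0.32, limma adjusted p = 0.237).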

How the data were processed

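RNA of macrophages sorted from E15.5 fetal liver was made into stranded mRNA libraries and read in pairs. The authors quantified reads with salmon on GRCm39, summed them to genes with tximport and scaled them with DESeq2 (versions not given in the sources used here). The deposited signal values are the resulting normalized counts, 1 column per sample. They are not raw counts: between 26.5% and 49.7% of values under 10 lay within 0.05 of a whole multiple of the best spacing, where chance gives 10%, so whole reads could not be recovered and depth is unknown. The per-sample totals of 26942921 to 28309443 are set by the normalization.

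Genes that reached 10 normalized counts in 4 or more samples were tested with limma 3.58.1 (R 4.3.3, trend on the mean) on log2(normalized count + 1), 5 Mrc1Cre Xpr1fl/fl against 4 Xpr1fl/fl samples, with Benjamini-Hochberg adjustment over all genes tested and a threshold of 0.05. Fold changes are on that scale. Ratios of 5 pairs of genes were compared by an exact permutation test over samples. Positions and transcript lengths come from GENCODE M39 on GRCm39. Values in every sample are given for the 5 lysosomal genes that rose most and the 5 that fell most past the threshold at a mean of at least 50 normalized counts, for 5 pairs of like name or role, and for Grn, Sort1 and Psap, and further values of other members were added after they were seen. The members and lists were chosen with earlier results of these data known. Alternatives were another pseudocount, filter and scaling, the date, Ddx3y or the replicate number in the fit, and each sample left out in turn. The reference counts over X-linked genes and over genes at a mean of at least 1000 were added after the data were seen. A few genes are not reported here.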

Additional observations from a re-analysis of the deposited data

Results flagged for a closer look

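The highest and the lowest sample of each genotype were compared with the others of that genotype for the 43 lysosomal genes and a few others, 110 groups in all, of which chance would set about 5.5 apart at the level used (1 in 20). In 2 groups a sample stood apart, and in both it was Cre sample 5, the Mrc1Cre Xpr1fl/fl sample that shares its date with 3 controls. Psap was at 180094.8 normalized counts there against 186596.2 to 189119.7 in the other 4 Cre samples. Lamp2 was at 12939.0 against 15597.0 to 16181.7.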

How the results depend on the processing

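Once the date entered the fit, 3 of the 43 lysosomal genes were higher and 4 lower, of the 63 further lysosomal genes 8 were higher and 4 lower, and of all genes 577 were higher and 617 lower. Scaling to the 75th percentile gave 16 lower genes among the 43 and a median log2 fold change of -0.120, and over all genes 1999 higher and 3706 lower, against 2926 and 2939. With quantile normalization the median was -0.097. Leaving out each sample in turn gave 9 to 13 higher and 8 to 13 lower of the 43, a median of -0.081 to 0.008, 13 to 17 higher and 14 to 20 lower of the further lysosomal genes, and 2491 to 3050 higher and 2324 to 3031 lower of all genes. The replicate numbers did not pair the samples, since same-numbered samples had correlations of -0.0333, 0.147, -0.0113 and -0.0313 between their deviations. With the replicate block 12 of the 43 were higher and 13 lower, and 3146 and 3080 of all genes. Over 21 alternatives, Fuca1, Sgsh, Gla, Cd63, Scarb2 and Cln3 passed in each, and of the 903 gene results 800 kept direction and call, 58 lost the call, 23 gained it and 22 changed sign, none of a gene that had passed. With a date term, which sets Cre sample 5 against control samples 1 to 3, the sign changes were Acp5 0.052, Asah1 -0.064, Galc -0.040, Mcoln1 0.244 and Plbd1 0.387. With the 75th percentile they were Gaa -0.031, Galc -0.011 and Grn -0.059, and with quantile normalization Gaa -0.060, Galc -0.049, Lamp1 0.063 and Neu1 -0.020. Without 1 sample they were Grn -0.003 (Cre sample 3) and -0.041 (control 2), Plbd1 0.007 (Cre 1), 0.003 (Cre 2), 0.013 (control 3) and 0.040 (control 4), Plbd2 0.005 (Cre 1), 0.018 (control 3) and 0.051 (control 4), and Sort1 0.033 (control 3). Over all samples left out, Plbd1 ranged from -0.153 to 0.040, Plbd2 from -0.084 to 0.051 and Sort1 from -0.191 to 0.033. The cause was not tested. The count tests planned for recovered reads were not run, since reads could not be recovered, and what depth limits is unknown.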
